A study of Mus musculus with 2 samples.

Results

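The genes described here are 39 mouse genes that build and run the DNA replication fork. They were chosen by symbol and by role: the origin recognition complex, the loading factors, the MCM helicase and its activators, the replicative polymerases, the clamp and its loaders, the enzymes that join Okazaki fragments, and enzymes that make DNA precursors. All 39 were found among the 43346 Ensembl genes of the deposited tables, and the rule that names them uses no measured value. The study measured RNA in mouse heart at embryonic day 15.5 and holds 1 group of 2 libraries with no treated, mutant or control arm. Replicate 1 was a pool of hearts from 78 embryos and replicate 2 a pool from 62 embryos, both of strain B6NCrl, of mixed sex and labelled healthy. The labels' protocols name mirVana extraction, a size range above 200 nt, 10 ng of starting RNA and spike-ins, and link to a manual for SMARTer Ultra Low library preparation. The molecule is labelled total RNA, whereas that kit primes on poly(A) tails, and the labels do not say how RNA without a tail was treated.

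Replication starts in G1 phase, when the origin recognition complex (ORC) marks origins and, with Cdc6 and Cdt1, loads rings of MCM proteins 2 to 7 on DNA, a step called licensing. In S phase Cdc45 and GINS join the ring to form the active helicase, DNA polymerase alpha-primase lays primers, and polymerases epsilon and delta extend them with the sliding clamp PCNA, which replication factor C (RFC) loads. Geminin binds Cdt1 and blocks new licensing until mitosis is over. Heart muscle cells of the mouse still divide in the fetus and largely stop doing so soon after birth.

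With 1 pool on each side no test between the libraries was possible, and the differences given here are values with no p. The libraries held 41221435 gene counts in replicate 1 and 38457396 in replicate 2. Levels are in TPM, counts divided by transcript length and scaled to the same sum in each library, so that genes can be compared. The libraries themselves were compared by the log2 ratio of expected counts, replicate 1 over replicate 2, after edgeR's TMM scaling, with an exact 95% interval. That interval covers only the counting error of reads taken as independent, and it leaves out the spread between pools. Reads that carry no molecular identifier can be copies of 1 molecule, and the interval is then too narrow. All 39 genes passed the minimum of 10 counts in both libraries. Their counts ran from 218 to 12187 in a library.

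All 39 genes were detected at 1 TPM or more in both libraries. Their median level was 36.7 TPM in replicate 1 and 46.5 TPM in replicate 2, with a median of 43.0 TPM over the means of both libraries. The median over the 12491 detected protein-coding genes was 15.8 TPM, and 31 of the 39 genes stood above it. In all, 22 of the 39 were in the top 25% of detected protein-coding genes. In both libraries 13 genes were at 50 TPM or more and 36 were at 10 TPM or more. The order of the genes was nearly the same in the libraries, with a Spearman correlation of 0.973 and a Pearson correlation of 0.985 on log2 TPM over the 39 genes, a description of 2 libraries with the same gene lengths. The highest was Rrm2, the small subunit of ribonucleotide reductase, and the lowest was Orc1, the largest subunit of ORC.

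**Figure D1:**
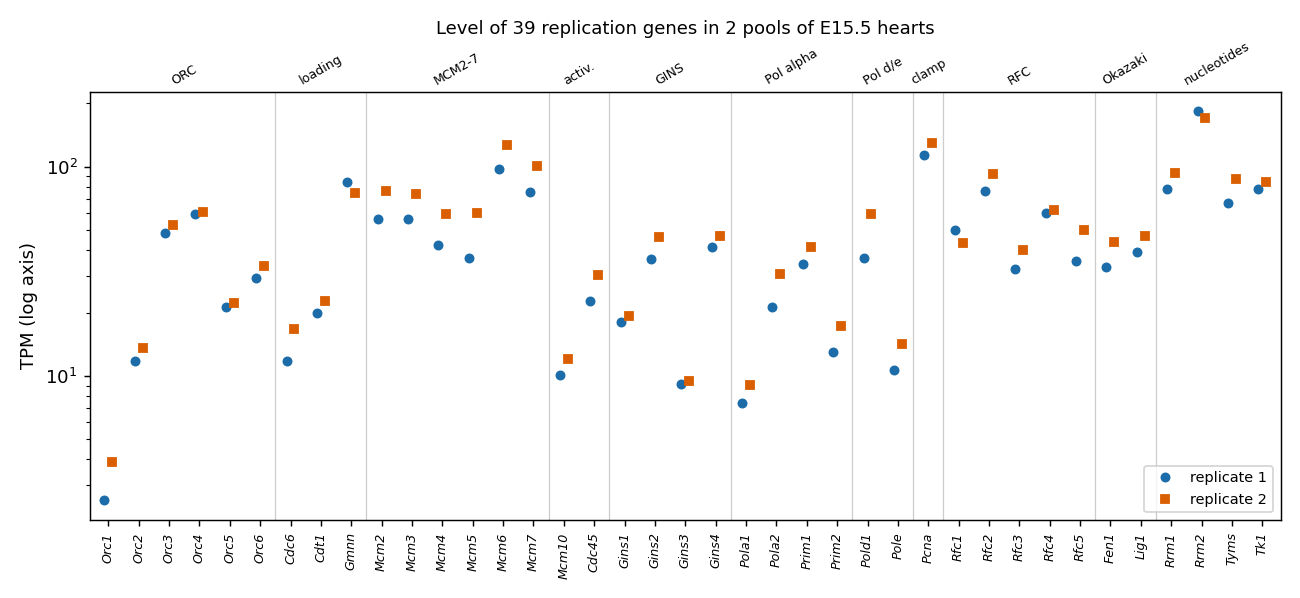
TPM (log axis) of each of the 39 genes in replicate 1 (circles) and replicate 2 (squares), grouped by complex or role. Levels run from Orc1, at 2.55 TPM in replicate 1 and 3.89 TPM in replicate 2, to Rrm2, at 184 TPM in replicate 1 and 171 TPM in replicate 2, and the MCM2-7 genes sit closer together than the ORC genes.

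The promoters of these genes were read first as reference sequence, because several are textbook targets of the E2F transcription factors, which switch on S phase genes. RefSeq promoters of build GRCm38.p6, 250 bases before to 50 bases after the start, matched 31 of the 39 genes and gave 38 promoters. The genes without an entry were Gins1, Gins2, Gins4, Gmnn, Mcm4, Pole, Prim2 and Rfc2. The E2F letter strings searched on both strands were TTTCCCGC, TTTCGCGC, TTTGCCGC and TTTGGCGC. Matches can overlap each other. They were present in 13 of the 38 promoters (34.2%), 1 in each of 13 genes, against 2.26% of all 32851 promoters and 3.92% of the 12579 promoters of detected protein-coding genes. The genes were Orc1, Orc3, Cdc6, Cdt1, Mcm3, Mcm5, Mcm6, Mcm7, Gins3, Pola1, Pold1, Rfc3 and Lig1. A letter match is a description of sequence, not a measured site, and a promoter without these letters says nothing about the factor.

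The E2F letters lay 5′ of the start in 9 genes, and stretches of 100 bases are shown for 6 of them so that the position and the neighbouring bases can be seen. They are from an ORC gene, a loading factor, 3 genes of the MCM ring and a primer polymerase. Sequences run 5′ to 3′ on the gene's strand, and capitals mark the E2F letters. Starts are those of RefSeq. In the GENCODE M21 annotation, used for gene positions, the stretches of Cdc6 (gene from 98907801) and Mcm7 (gene to 138172422) lie inside the gene. The stretch of Orc1 (gene from 108579423) lies partly inside it. The stretch of Orc1 is chr4:108579354-108579453 on the plus strand, that of Cdc6 is chr11:98907967-98908066 on the plus strand, and that of Mcm5 is chr8:75109310-75109409 on the plus strand. The stretch of Mcm6 is chr1:128359762-128359861 on the minus strand, that of Mcm7 is chr5:138171995-138172094 on the minus strand, and that of Pola1 is chrX:93632240-93632339 on the minus strand.
Orc1: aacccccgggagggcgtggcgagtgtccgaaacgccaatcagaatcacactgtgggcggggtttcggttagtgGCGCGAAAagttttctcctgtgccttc
Cdc6: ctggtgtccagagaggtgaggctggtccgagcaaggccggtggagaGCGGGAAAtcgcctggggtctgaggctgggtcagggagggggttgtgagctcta
Mcm5: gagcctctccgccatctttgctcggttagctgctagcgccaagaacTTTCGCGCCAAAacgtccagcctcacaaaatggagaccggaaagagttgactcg
Mcm6: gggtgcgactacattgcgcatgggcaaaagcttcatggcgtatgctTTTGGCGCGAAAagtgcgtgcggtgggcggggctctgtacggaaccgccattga
Mcm7: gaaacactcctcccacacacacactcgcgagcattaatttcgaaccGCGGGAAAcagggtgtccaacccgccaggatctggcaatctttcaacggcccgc
Pola1: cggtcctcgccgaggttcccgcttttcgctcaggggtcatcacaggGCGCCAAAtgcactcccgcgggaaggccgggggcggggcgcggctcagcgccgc

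In Mcm5 and in Mcm6 the capitals hold 2 overlapping E2F strings on opposite strands. The longest run that these promoters share, read on either strand, was 13 bases: TTTCGCGCCAAAA on the Mcm5 strand, from 153 bases before the start, and TTTTGGCGCGAAA on the Mcm6 strand, from 111 bases before it. Of the 32851 promoters, 3 hold this run on either strand, those of Mcm5, Mcm6 and Mycn. In 5 genes 1 promoter held 2 or more E2F matches, and these were Mcm3, Mcm5, Mcm6, Mcm7 and Rfc3, 4 of them MCM2-7 genes.

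Other letter strings were searched on both strands in the same windows. CCAAT, the box bound by NF-Y, was in 21 of the 38 promoters (55.3%), against 37.4% of all promoters and 37.7% of those of detected protein-coding genes. GGGCGG, the GC box, was in 27 of the 38 (71.1%), against 35.7% of all promoters but 62.6% of those of detected protein-coding genes. TTTGAA, the core of the CHR element, was in 4 of the 38 (10.5%), against 17.9% of all promoters and 11.9% of those of detected protein-coding genes. A list of 12 genes of G2 and M phase, with 10 promoters, held the E2F letters in 1, CCAAT in 9 and TTTGAA in 6. The 13 genes with E2F letters had median levels of 36.7 TPM in replicate 1 and 46.8 TPM in replicate 2, and the 18 matched genes without them had 42.7 and 46.7 TPM, so the presence of these letters did not go with a higher level.

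**Figure D2:**
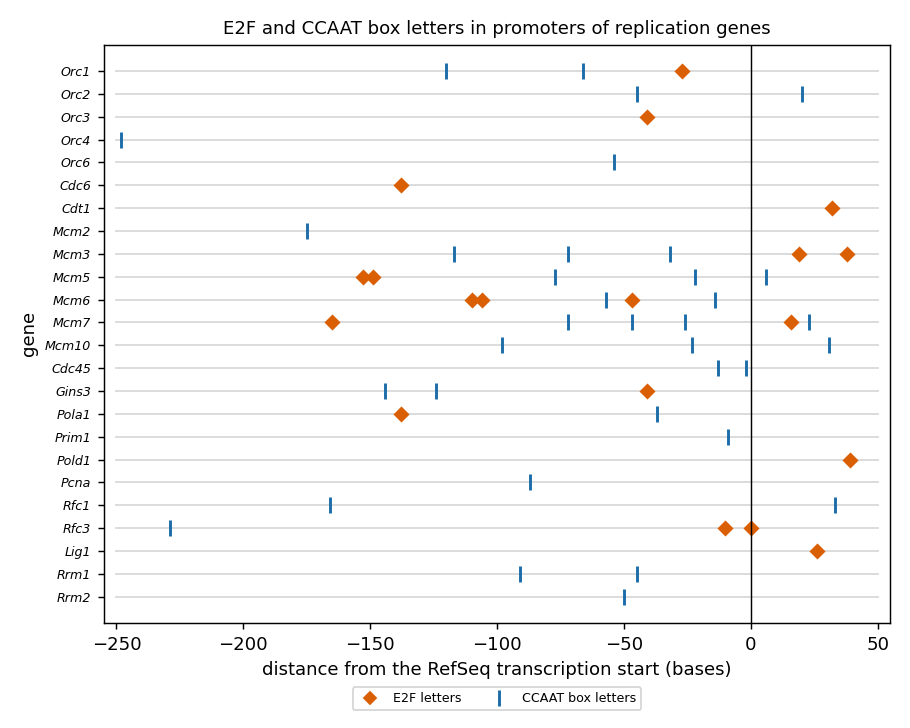
Position of E2F letters (diamonds) and CCAAT letters (bars), on either strand, along the 300-base promoters of the genes that hold either; the x axis is the distance from the RefSeq start in bases, and promoters of 1 gene share a line. The 13 genes with E2F letters hold them from 165 bases before the start, in Mcm7, to 39 bases after it, in Pold1.

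The subunits of the origin recognition complex differed widely in level. The coefficient of variation over the 6 subunits was 75.4% in replicate 1 and 71.5% in replicate 2, and the order was the same in both: Orc4, Orc3, Orc6, Orc5, Orc2, Orc1. Orc1 (chr4:108579423-108614833, plus strand), the subunit that is degraded and made again within each cell cycle in mammalian cells, had 2.55 TPM in replicate 1 and 3.89 TPM in replicate 2. Orc4, an ATPase-family subunit, had 59.5 and 60.6 TPM, which was 23.3 and 15.6 times the level of Orc1. Only 12.1% of detected protein-coding genes had a lower mean level than Orc1.

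Orc3 had 48.1 TPM in replicate 1 and 52.6 TPM in replicate 2. Orc6, the smallest subunit, had 29.2 and 33.4 TPM. Orc5 had 21.3 and 22.2 TPM and Orc2 had 11.8 and 13.6 TPM in replicates 1 and 2. The 5 subunits without Orc1 still differed 5.04 times between highest and lowest in replicate 1 and 4.46 times in replicate 2, so Orc1 did not make the whole spread. The ranges of neighbouring subunits in the order did not overlap between the libraries, and the closest were those of Orc4, 59.5 to 60.6 TPM, and Orc3, 48.1 to 52.6 TPM.

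The level of Orc4 depends on which transcripts are counted. Transcripts annotated as protein-coding held 28.9% of its TPM in replicate 1 and 28.8% in replicate 2, which is 17.2 and 17.5 TPM. A transcript of 1477 bases annotated as a processed transcript (Orc4-212) held 36.8% and 22.5%, and the 4066-base coding transcript Orc4-201 held 14.8% and 15.6%. Counted by coding transcripts alone, the order of ORC was Orc3, Orc6, Orc5, Orc4, Orc2, Orc1 in both libraries. The coefficient of variation of ORC was then 65.2% in replicate 1 and 60.4% in replicate 2, below that of GINS at 80.1% and 83.2%, whereas over all transcripts ORC was above GINS, at 57.7% and 62.1%. Orc1 was the lowest either way, at 2.24 TPM in replicate 1 and 3.31 TPM in replicate 2 over coding transcripts.

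Among the loading factors, geminin stood above the protein it inhibits. Gmnn (chr13:24751845-24761923, minus strand), which encodes geminin, had 84.3 TPM in replicate 1 and 74.6 TPM in replicate 2. Cdt1, which brings MCM rings to ORC, had 20.0 and 22.7 TPM, so that the ratio of Gmnn to Cdt1 was 4.22 in replicate 1 and 3.29 in replicate 2. Cdc6, the ATPase that joins ORC at origins, had 11.8 and 16.8 TPM. These are levels of mRNA, and the amounts of the proteins, which are known to be set largely by degradation, were not measured.

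Of the 2 relatives of geminin that drive multiciliated cells, Gmnc had 0 counts in both libraries and Mcidas had 13 counts in replicate 1 and 41 in replicate 2. The 8 genes of a list on the control of licensing were all detected. Ddb1, an adaptor of the CUL4 ubiquitin ligase, was the highest of the 8, at 158 and 198 TPM. Cul4b was the lowest, at 11.2 and 11.8 TPM, and its paralog Cul4a was 6.57 times higher in replicate 1 and 6.86 times higher in replicate 2.

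The 6 MCM2-7 genes, whose products form a ring with 1 copy of each, were among the highest and the most even. Their median was 56.0 TPM in replicate 1 and 75.1 TPM in replicate 2, 2.22 and 2.70 times the median of ORC. The coefficient of variation was 37.0% in replicate 1 and 31.6% in replicate 2, and the highest gene was 2.65 and 2.14 times the lowest. Mcm6 was first, at 97.2 and 126 TPM, and Mcm7 second, at 75.7 and 101 TPM, in both libraries.

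Mcm2 had 55.9 TPM in replicate 1 and 76.5 TPM in replicate 2. Mcm3 had 56.1 and 73.6 TPM, and Mcm4 had 42.2 and 59.0 TPM. Mcm5 (chr8:75109569-75128439, plus strand), whose promoter is printed above, had 36.7 and 60.2 TPM. Over all transcripts Mcm2 and Mcm3 stood above Mcm4 and Mcm5 in both libraries, but places changed within each of these pairs. Mcm5 was lowest in replicate 1 and Mcm4 lowest in replicate 2. Retained-intron transcripts held 29.0% and 26.9% of the TPM of Mcm3. Over coding transcripts alone Mcm3 had 39.8 and 53.8 TPM, below Mcm4 in both libraries and lowest of the ring in replicate 2. The MCM paralogs that are not part of the ring, Mcm8 and Mcm9, had 6.89 and 3.64 TPM in replicate 1 and 8.25 and 4.04 TPM in replicate 2, and Mcm6 was 26.7 and 31.2 times Mcm9.

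The activators of the ring were lower than the ring itself. Cdc45 had 22.9 TPM in replicate 1 and 30.4 TPM in replicate 2. Mcm10, a factor that helps to open the double helix at origins and bears no sequence kinship to the ring proteins, had 10.1 and 12.0 TPM. Mcm2 stood 2.44 and 2.51 times above Cdc45 and 5.53 and 6.39 times above Mcm10 in replicates 1 and 2. The 7 firing factors, which act in the step from licensed to active helicase, had a median of 8.62 TPM in replicate 1 and 9.68 TPM in replicate 2. Topbp1, a scaffold that also serves checkpoint signalling, was the highest of them at 30.1 and 33.8 TPM, and the RecQ helicase gene Recql4 was the lowest at 1.41 and 2.45 TPM.

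The 4 GINS genes, whose products assemble with 1 copy of each, kept the order Gins4, Gins2, Gins1, Gins3 in both libraries. Gins4 had 41.3 TPM in replicate 1 and 46.5 TPM in replicate 2. Gins2 had 36.1 and 46.0 TPM, and Gins1 had 18.0 and 19.3 TPM. Gins3 had 9.20 and 9.44 TPM, and Gins4 was 4.49 and 4.92 times higher than it.

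The place of Gins2 rests on a short transcript. A retained-intron transcript of 511 bases (Gins2-204) held 64.5% of its TPM in replicate 1 and 72.1% in replicate 2. It held 312 and 396 counts, against 1054 and 1121 counts of the 3900-base coding transcript Gins2-201. By coding transcripts alone Gins2 had 8.54 and 10.2 TPM, close to Gins3, and was the lowest of the complex in replicate 1. The GINS genes Gins2, Gins3 and Gins4 are on chromosome 8, which holds 6 of the 39 genes (15.4%) and 5.37% of the detected protein-coding genes.

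The 4 genes of DNA polymerase alpha-primase also kept 1 order, Prim1, Pola2, Prim2, Pola1. Prim1, the catalytic primase subunit, had 34.4 TPM in replicate 1 and 41.4 TPM in replicate 2. Pola2, the accessory subunit of the polymerase, had 21.4 and 30.7 TPM, and Prim2, the large primase subunit, had 13.0 and 17.3 TPM. Pola1, the catalytic polymerase subunit, had 7.43 and 9.02 TPM and was the lowest of the 39 genes after Orc1. Prim1 was 4.63 and 4.59 times Pola1. Per length this spread is wide, but in expected counts it is smaller: Pola1, with the longest transcript of the 4 at 5346 bases, had 1260 and 1314 counts, against 1709 and 1840 counts of Prim1.

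Of the catalytic subunits that extend the primers, Pold1 of polymerase delta had 36.7 TPM in replicate 1 and 59.6 TPM in replicate 2. Pole of polymerase epsilon had 10.7 and 14.2 TPM, so that Pold1 was 3.43 and 4.20 times Pole. Over coding transcripts alone they were closer, with Pold1 at 22.2 and 33.8 TPM and Pole at 9.36 and 11.2 TPM. A coding transcript of 747 bases (Pole-203) held 40.4% and 33.6% of the TPM of Pole on 91 and 90 counts. Of the other 6 subunits of these polymerases, Pold2, an accessory subunit, was the highest at 80.7 and 92.3 TPM. Pole2 was the lowest at 10.0 and 12.5 TPM. Within polymerase epsilon, Pole4, a small histone-fold subunit, had 67.2 and 64.0 TPM and was 6.70 and 5.12 times Pole2. The coefficient of variation over the 4 subunits of polymerase epsilon was 87.4% in replicate 1 and 73.8% in replicate 2, above that of ORC in both libraries.

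The sliding clamp gene Pcna was the second highest of the 39 genes on average, at 114 TPM in replicate 1 and 129 TPM in replicate 2. It was 3.12 and 2.16 times Pold1, whose product it holds on DNA; 3 PCNA subunits form 1 clamp. A processed pseudogene, Pcna-ps2, held 38 and 40 counts, against 5135 and 5137 counts for Pcna.

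The clamp loader RFC was about as even as the MCM ring, with a coefficient of variation of 35.8% in replicate 1 and 36.6% in replicate 2. Rfc2 had 76.6 TPM in replicate 1 and 91.8 TPM in replicate 2. Rfc4 had 59.8 and 61.7 TPM, Rfc5 had 35.5 and 49.7 TPM, and Rfc3 had 32.3 and 40.1 TPM. The large subunit Rfc1, which is specific to the loader of PCNA, had 49.9 and 43.3 TPM. Rfc2 was first, Rfc4 second and Rfc3 last in both libraries, while Rfc1 and Rfc5 changed places. Of the 5 RFC genes Rfc1, Rfc2, Rfc3 and Rfc5 are on chromosome 5, which holds 8 of the 39 genes (20.5%) and 6.18% of the detected protein-coding genes.

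Rfc1 is the least certain of these levels. A transcript of 485 bases that is not in GENCODE M21 had 24.98 TPM in replicate 1 and 19.95 TPM in replicate 2, more than any other transcript of the gene. It held 313 and 223 counts, against 1029 and 1268 counts of a 4751-base transcript, also not in that release. The 1 transcript that M21 types as coding, Rfc1-201 of 4694 bases, held 4.97% and 7.80%. Over coding transcripts alone the coefficient of variation of RFC was 75.3% in replicate 1 and 75.5% in replicate 2. Both values are limited by the difference between the annotation of the files and M21.

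A further list held 5 genes of other clamp loaders. Chtf8 was the highest of them, at 40.8 TPM in replicate 1 and 49.5 TPM in replicate 2, and Atad5, whose product unloads PCNA, the lowest at 3.60 and 3.89 TPM. The 3 genes of replication protein A, which coats single-stranded DNA, ran from 50.3 TPM (Rpa2) to 90.4 TPM (Rpa3) in replicate 1 and from 58.6 TPM (Rpa2) to 68.5 TPM (Rpa1) in replicate 2. Of the 4 genes matched in the fork protection list, which left out Clspn through a misspelt symbol, Tipin was the highest at 69.9 ± 7.22 TPM and the nuclease gene Dna2 the lowest at 9.71 ± 1.89 TPM (mean ± SD, n = 2).

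The Okazaki fragment genes were nearly equal. Fen1, the flap endonuclease, had 33.0 TPM in replicate 1 and 43.7 TPM in replicate 2. Lig1, the ligase that seals the nicks, had 39.2 and 46.8 TPM, or 1.19 and 1.07 times Fen1. In TPM the difference between these genes was smaller than that between the libraries. On the TMM scale the libraries differed less, with Fen1 1.11-fold and Lig1 1.04-fold higher in replicate 2. The most used Lig1 transcript was a coding one of 944 bases, with 46.9% and 51.6% of its TPM, and the 3091-base coding transcript Lig1-201 held 22.0% and 16.9%. The histone chaperone genes that act behind the fork ran from Chaf1a, at 11.1 and 17.6 TPM, to Ssrp1, a FACT subunit, at 85.9 and 116 TPM.

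Of the groups with more than 1 gene the nucleotide supply genes were the highest, with medians of 77.9 TPM in replicate 1 and 90.2 TPM in replicate 2. Rrm2 (chr12:24708241-24714146, plus strand), the ribonucleotide reductase subunit made in S phase, had 184 and 171 TPM, and 94.5% of detected protein-coding genes had a lower mean. Rrm1, the large subunit, had 78.1 and 93.3 TPM, and Rrm2 was 2.36 and 1.83 times as high. Rrm2b, the small subunit that non-dividing cells use, had 12.4 and 8.05 TPM, so Rrm2 exceeded it 14.8 and 21.3 times.

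Tk1, the thymidine kinase of the cytosol, had 77.7 TPM in replicate 1 and 84.7 TPM in replicate 2, which was 10.5 and 8.73 times Tk2, the kinase of mitochondria. Tyms, thymidylate synthase, had 67.1 and 87.2 TPM. In the remaining nucleotide list Dtymk, which makes dTDP from dTMP, was the highest at 122 and 129 TPM.

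For Tyms too the transcripts matter, since the coding transcript Tyms-201 of 3163 bases held 7.87% of its TPM in replicate 1 and 6.72% in replicate 2, or 5.28 and 5.86 TPM. A transcript of 797 bases typed as a target of nonsense-mediated decay (Tyms-205) held 36.5% and 44.9%, and a retained-intron one of 816 bases (Tyms-202) held 31.7% and 24.9%. By expected counts the coding share of Tyms was larger, at 19.7% and 16.9%. Tk1 had 59.6% and 58.8% of its TPM in its coding transcript.

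Over the 39 genes, 21 had 90% or more of their TPM in coding transcripts in both libraries and 14 of these had all of it there, 8 genes having only 1 deposited transcript. The genes Orc4, Gins2, Rfc1 and Tyms were under 50% in both. The most used transcript was the same in both libraries for 36 of the 39. Shares by transcript are the authors' estimates from reads that several transcripts of a gene can share, and in TPM a few reads on a short transcript weigh as much as many on a long one. What the labels leave unsaid about RNA without a poly(A) tail limits the shares of retained-intron and other noncoding transcripts.

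**Figure D3:**
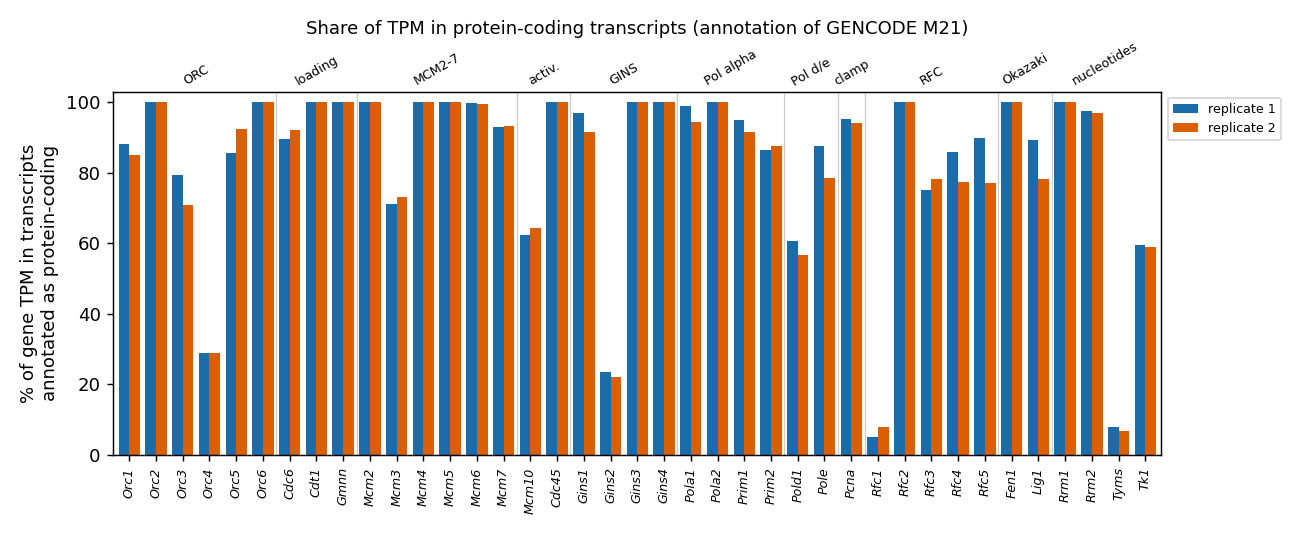
Share of each gene's TPM, in percent, held by transcripts that GENCODE M21 types as protein-coding, in replicate 1 (left bars) and replicate 2 (right bars). Orc4, Gins2, Rfc1 and Tyms are under 50% in both libraries, and 14 genes are at 100%.

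Whether the authors' counting used strand is not stated in the labels or headers. It is therefore not known from them whether reads of a gene and of an antisense neighbour were kept apart. Exons of 15 of the 39 genes overlap those of another gene, on the opposite strand for 14. The neighbours with more counts than the gene itself in both libraries were Nif3l1 for Orc2, Vps35 for Orc6, Ufd1 for Cdc45, Eif4a2 for Rfc4, Wsb2 for Rfc5 and Tmem258 for Fen1. Orc6 had 1460 counts in replicate 1 and 1492 in replicate 2, while Vps35 had 9227 and 8453. Mcm7 had 5591 counts in replicate 1 and 6936 in replicate 2, and its neighbour Cops6 had 6600 and 6880. The authors' deposited posterior SD of the count, which covers reads that several features share, was at most 1.03% of the count for the 39 genes and 0 in both libraries for 25 of them. For Orc6 it was 0 in both libraries, and for Mcm7 it was 0.017% in replicate 1 and 0.0105% in replicate 2.

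Between the pools none of the 39 genes differed by 1.5-fold in either direction. Of the 17029 genes with 10 or more counts in both libraries, 15.9% did, 4.74% being higher in replicate 1 and 11.2% higher in replicate 2. Among the 11348 genes with 200 or more counts in both, a depth that all 39 genes reach, the share past 1.5-fold was 4.86%, so 0 of 39 is near that background. No p was computed, since each side is 1 pool. At a lower line, a log2 ratio of 0.32 in size, 3 of the 39 were higher in replicate 1, against 16.2% of tested genes, and 4 were higher in replicate 2, against 18.9%. These shares are over all 17029 tested genes. They were not computed for genes with 200 or more counts, so they are not matched in depth to the 39 genes. The median log2 ratio was -0.06 for the 39 genes and 0.02 for all tested genes. Of the 39, 24 were below 0, while 47.9% of tested genes were.

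Gmnn had the highest ratio, with 2327 counts in replicate 1 and 1838 in replicate 2, a log2 ratio of 0.41 (95% counting interval 0.32 to 0.50). Rrm2 had 12187 and 10032 counts and a log2 ratio of 0.35 (0.32 to 0.39). Orc4 had 2696 and 2251 counts and a log2 ratio of 0.33 (0.25 to 0.41). These are the 3 genes past the lower line in that direction. In TPM Gmnn and Rrm2 were also higher in replicate 1, but Orc4 was not, at 59.5 in replicate 1 and 60.6 in replicate 2.

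Mcm5 had the lowest ratio, with 3959 counts in replicate 1 and 5799 in replicate 2, a log2 ratio of -0.48 (-0.54 to -0.42). Pold1 had 2663 and 3783 counts and a log2 ratio of -0.43 (-0.51 to -0.36). Cdc6 had 1053 and 1405 counts and a log2 ratio of -0.34 (-0.46 to -0.23). Orc1 had 218 and 290 counts and the same ratio, -0.34, with the widest interval, from -0.60 to -0.08. Counting intervals left out 0 for 26 of the 39 genes. The share over all tested genes was not computed, so this count says nothing particular to these genes. It does not show that the differences exceed the spread between pools, and reads copied from 1 molecule would make the intervals too narrow.

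The MCM2-7 genes lay on 1 side. All 6 had ratios below 0, from -0.48 in Mcm5 to -0.14 in Mcm6, with a median of -0.23. Mcm2 was at -0.22, Mcm3 at -0.18, Mcm4 at -0.25 and Mcm7 at -0.24. The catalytic polymerase genes Pold1 and Pole were also below 0, with Pole at -0.28. ORC had a median of 0.10, GINS of 0.12, DNA polymerase alpha-primase of -0.10, RFC of -0.02 and the nucleotide supply genes of 0.05. The 12 genes of G2 and M phase had a median of 0.14, with 9 of the 12 above 0, among them Cdk1, the mitotic kinase and highest of the list at 238 and 273 TPM, while Cenpe, a kinetochore motor, was the lowest at 12.3 and 12.2 TPM. No test compared these groups.

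**Figure D4:**
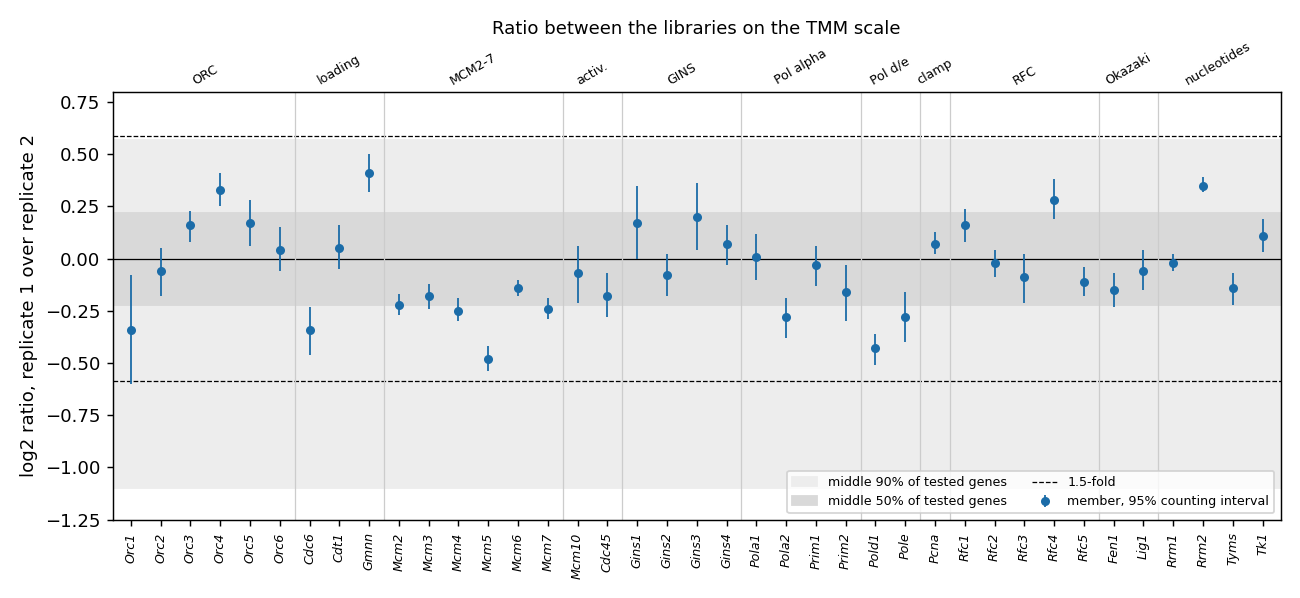
Log2 ratio of TMM-scaled counts, replicate 1 over replicate 2, for each gene, with the exact 95% counting interval; dark and light grey bands hold the middle 50% and 90% of the 17029 tested genes and dashed lines mark 1.5-fold. All 39 genes lie inside the dashed lines, Gmnn highest at 0.41 and Mcm5 lowest at -0.48.

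Among the other genes of the pathway, those past 1.5-fold with 100 or more counts in the higher library were Rpa3 and Ticrr. Rpa3 had 1676 counts in replicate 1 and 1133 in replicate 2, a log2 ratio of 0.64. Ticrr, a firing factor also called treslin, had 409 and 664 counts and a log2 ratio of -0.63. Counts by list were 1 of 3 for replication protein A, 1 of 7 for the firing factors and 0 for the polymerase subunits, licensing control, fork protection, alternative clamp loaders, MCM paralogs, histone chaperones, further nucleotide supply and G2 and M phase genes. Past 1.5-fold were 15.9% of all tested genes and 4.86% of those with 200 or more counts. Lists of 3 and 7 genes are too short to set against these shares. Mcidas, at -1.58, was past the line too but had under 100 counts in both libraries.

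Levels of cell type markers differed between the pools in the same data. The part of cellular makeup in the ratios of the 39 genes was not tested. The marker lists were chosen with earlier results of these data known, so their values are a description only. All 10 cardiomyocyte markers were detected in both libraries. On the TMM scale all were higher in replicate 1, with a median log2 ratio of 0.42 and the lowest, 0.09, in Myh6. Their summed level was 37562 TPM in replicate 1 and 31196 TPM in replicate 2, although Myh6 in TPM was lower in replicate 1, at 712 against 760. Markers of tissues near the heart were lower in replicate 1. The 8 thymocyte markers summed to 16.1 and 167 TPM, and the 6 of them with enough counts had a median log2 ratio of -3.25. Liver markers summed to 45.4 and 209 TPM (8 of 8 below 0), lung epithelium markers to 133 and 329 TPM (5 of 5 measured below 0) and neural crest and neuron markers to 14.0 and 68.7 TPM (8 of 8 below 0). No defining marker of these lists was at 0 in both libraries.

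Macrophage markers summed to 154 TPM in replicate 1 and 226 TPM in replicate 2, and erythroid markers to 378 and 437 TPM. Endothelial and fibroblast markers both had median log2 ratios of 0.03, and epicardial markers of -0.02. In a bulk sample, fewer cells of a type and less RNA per cell cannot be told apart. The named markers past 1.5-fold in the lists of heart and blood cells were Tnni3 at 0.63 and Myl2 at 0.68 among cardiomyocyte genes, Klf1 at -1.93, Epb42 at -0.87 and Hemgn at -1.37 among erythroid genes, Cd68 at -0.75 among macrophage genes and Krt19 at -0.63 among epicardial genes, all as log2 ratios.

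GC content moved with the ratio as well. Over 16957 tested genes with a transcript sequence, GC content of the leading transcript and the log2 ratio had a Spearman correlation of -0.28, and over the 39 genes of -0.51, both across genes that share the same 2 libraries. Of 4 equal groups by GC content, the lowest had a median log2 ratio of 0.14 and the highest of -0.11. Orc4, at 38.0% GC and 0.33, and Pold1, at 60.7% GC and -0.43, lie at the ends of that slope, while Gmnn, at 45.9% GC and 0.41, and Mcm4, at 45.5% GC and -0.25, differ at nearly the same GC content. Cdt1, at 58.8% GC, was at 0.05. From the lowest to the highest of the 4 groups, the members had medians of 0.04, -0.11, -0.15 and -0.08, which is no steady fall. The GC content of Orc4 is that of its processed transcript Orc4-212. After centring in bins of GC content, a choice made after seeing the data, the MCM2-7 median was -0.20 and Mcm5 was at -0.46, Gmnn at 0.31, Pold1 at -0.28 and Orc4 at 0.12.

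**Figure D5:**
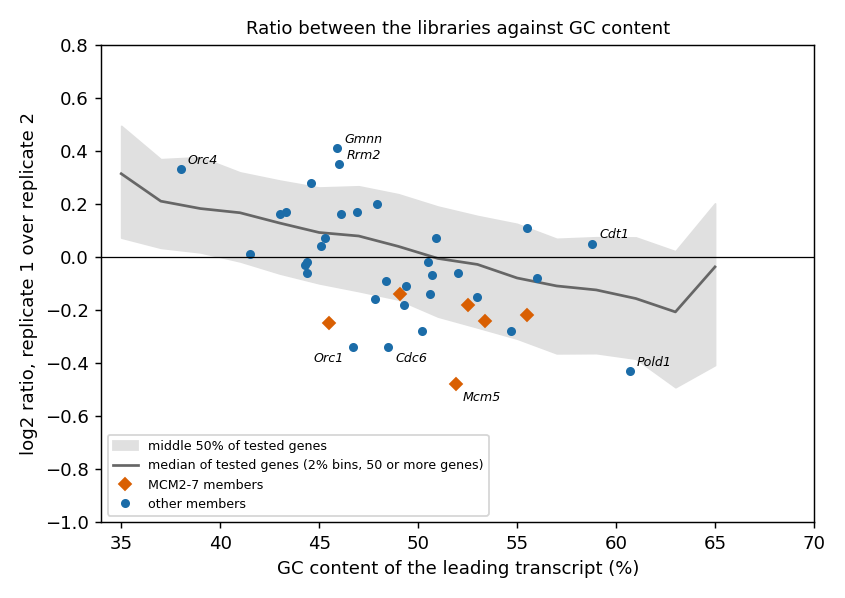
Log2 ratio, replicate 1 over replicate 2, against the GC content (%) of the leading transcript; diamonds are the 6 MCM2-7 genes, circles the other 33 genes, and the line and band give the median and the middle 50% of tested genes in steps of GC content. The line falls over most of the GC range, the MCM2-7 genes lie below it, and Gmnn and Rrm2 lie above.

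The direction of the whole set depends on the scale. On spike-in counts the 39 genes had a median log2 ratio of 0.85 and 35 of them were past 1.5-fold higher in replicate 1, against 81.6% of tested genes, whose own median was 0.93. Spike-in reads were 1.58% of all counts in replicate 1 and 3.12% in replicate 2. On total gene counts 2 genes, Mcm5 and Pold1, were past 1.5-fold higher in replicate 2, against 15.3% of tested genes. In deposited TPM 3 genes, Mcm5, Pold1 and Orc1, were, against 17.9%. The shares past 1.5-fold on these scales include tested genes of low count and are not matched in depth to the 39 genes. In TPM 36 of the 39 were higher in replicate 2, as were 76.0% of detected protein-coding genes. Relative to the median of tested genes on each scale, the 39 genes stood slightly lower in replicate 1 on all 4 scales, with medians of tested genes of 0.02 for TMM, 0.93 for spike-ins, -0.16 for total gene counts and -0.21 for TPM. The first 3 of these scales differ by a constant, so they give the same distance by construction.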

How the data were processed

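RNA-seq of E15.5 mouse heart was analysed from 2 libraries. Per the file headers, genes and transcripts were quantified by the authors on the mm10 build with GENCODE M4. Neither aligner, quantifier nor strand setting is given in the sources used here. Expected counts, as deposited, are estimates of reads with no normalization, and the deposited TPM divide them by effective length and scale each library to the same sum. The authors also deposited a posterior SD of each count and each transcript's percent of its gene's TPM.

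Of 43346 Ensembl genes, 42462 matched GENCODE M21 by identifier, for symbols, positions and transcript types. Library offsets came from edgeR 4.0.16 (TMM) and, as an alternative, DESeq2 1.42.0, in R 4.3.3. Intervals, sums and motif searches used Python 3.11.15, pandas 2.3.3 and SciPy 1.17.1. Expected counts were rounded to whole numbers for the TMM and DESeq2 offsets and for the counting intervals, while the ratio itself used them unrounded. Called means past 1.5-fold, among 17029 genes with 10 or more counts in both libraries. The replicates are pools of embryos, so their difference is one between pools. Promoters came from RefSeq, GRCm38.p6. All 39 genes are named, and of each other pathway list the highest, the lowest and any gene past 1.5-fold with 100 or more counts. An item that this rule would name is not reported here. The genes and lists were chosen with earlier results of these data known. The lists held 2 symbols with no match, Ahsp and Claspn, a misspelling of Clspn, and both genes were left out. The planned protein comparison was not made. Alternatives were other scalings, thresholds, lengths and transcript sets.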

Additional observations from a re-analysis of the deposited data

How the results depend on the processing

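The median level of the 39 genes, 43.0 TPM, was 31.3 TPM over coding transcripts and 54.9 TPM when rescaled without hemoglobin, mitochondrial and spike-in RNA. The coefficient of variation over subunits (mean of both libraries) was 73.5% for ORC, 59.9% for GINS, 59.9% for polymerase alpha-primase and 36.2% for RFC. Over coding transcripts it was 62.8% for ORC, 81.7% for GINS and 75.4% for RFC. In counts with no length normalization it was 60.4% for ORC, 53.8% for GINS, 31.3% for polymerase alpha-primase and 38.9% for RFC, and in posterior mean TPM 35.2% for RFC. The median log2 ratio of -0.06 was 0.85 on spike-ins, -0.24 on total gene counts and -0.27 in TPM. On spike-ins 0 of the 39 genes were below 0 and 35 were past 1.5-fold higher in replicate 1. Past 1.5-fold higher in replicate 2 were 2 on total gene counts and 3 in TPM, and at a log2 line of 0.32 3 were higher in replicate 1 and 4 in replicate 2. E2F letters were in 13 promoters, and in 8 over the 150 bases before the start. Beyond the construction of these scales, the cause was not tested. MCM2-7 evenness (34.3%) and the number of genes detected stayed within the limits set. So did the median ratio and the counts past 1.5-fold and below 0 under DESeq2 scaling, GC or length centring and no filter. For single genes, GC centring moved 16 of the 39 ratios and length centring 8 by more than their counting error. With either library left out, the median level was 36.7 to 46.5 TPM. The ratio cannot be had from 1 library. No paired analysis was possible because there is only 1 group. Depth limits Orc1 most, at 218 and 290 counts.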
